A study of Rattus norvegicus with 26 samples.

Results

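The reactive astrocyte genes Gfap, Vim, Nes, Serpina3n, Lcn2, Cd44, Socs3 and Stat3 were followed by symbol in the joint table of read counts of a rat spinal cord injury study, across all 8 groups. Of the 8 genes listed, 7 had a row among the 32883 rows of the table, and all 7 were among the 17990 genes that passed the filter on low counts. Serpina3n was not analysed here. The 3 genes Gfap, Vim and Nes encode intermediate filament proteins, Lcn2 a secreted protein, Cd44 a surface receptor, Stat3 a transcription factor and Socs3 an inhibitor of the pathway that Stat3 serves.

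The study asked how mesenchymal stem cells of human umbilical cord (hUC-MSCs) act on the injured spinal cord, and RNA was sequenced from 5 mm segments centred on the lesion. All animals were wild-type Sprague-Dawley rats, adult females that the labels give as postnatal day 70 in all groups alike. The group Intact (n = 4) holds uninjured, untreated cords, intact or sham operated, and which of them were sham operated is not given in the sources used here. In sub-SCI (n = 3) the cord had been compressed at T10 with a 60 g clip for 1 min and was taken on day 7, before any transplantation. The +PBS groups carried the same injury and received phosphate buffered saline intrathecally on day 7, and were taken 1 week (+PBS-1w, n = 3), 2 weeks (+PBS-2w, n = 2) or 4 weeks (+PBS-4w, n = 4) later. The +MSC groups (+MSC-1w, n = 3; +MSC-2w, n = 3; +MSC-4w, n = 4) received hUC-MSCs at the same point in place of saline. The injured animals were given daily cyclosporin A, an immunosuppressant, and whether the Intact animals were is not stated. Each library is taken as 1 animal's segment, since no label says otherwise, and the p-values measure the spread between these libraries.

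Astrocytes answer damage to the cord by becoming reactive: they enlarge, fill with intermediate filaments of glial fibrillary acidic protein (Gfap), vimentin (Vim) and nestin (Nes), and build a border around the lesion. Cytokines of the interleukin 6 family signal through the shared receptor subunit gp130 (Il6st) and JAK kinases to Stat3, which is known as a driver of this response, while Socs3 is induced by the pathway and blocks its receptors and kinases. Vimentin, Cd44 and Socs3 are not particular to astrocytes: fibroblasts, macrophages and microglia express them too. Lipocalin 2 (Lcn2) is also made by neutrophils and other leukocytes. In bulk tissue, fewer cells of a type and less RNA per cell cannot be told apart.

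The joint table equalled the libraries' own count files in 26 of 26 cases, and library totals ran from 19496602 to 43468509 counts. The cord's defining markers were present throughout: the summed level of 10 neuronal markers ran from 8869 to 10820 CPM in Intact and from 377.9 to 1770 in sub-SCI, and that of 8 oligodendrocyte markers from 50200 to 56670 and from 16760 to 34410. CPM is the counts-per-million scale, with the library size scaled by the trimmed mean of M values (TMM). A gene is called where edgeR's quasi-likelihood test, fitted over all libraries, gave a Benjamini-Hochberg adjusted p under 0.01 and an absolute log2 fold change above 1. The replicate 1 libraries deviated from their group means together: between Intact replicate 1 and replicate 1 of the other groups the deviations correlated over genes at 0.222 to 0.317, except in the 2 week groups, at -0.0576 and 0.0882. What these libraries have in common is not given in the sources used here, and calls that were lost without them are given with the value without them. The comparisons with Intact share the same 4 Intact libraries, and those with sub-SCI the same 3 sub-SCI libraries.

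The promoter windows of 300 bases around the start site are shown for the 3 filament genes, because these genes share a role and yet had different courses of values after injury. They are RefSeq sequences on GRCr8, written 5′ to 3′ on the gene's strand, and all 7 members matched an entry by symbol. Gfap lies on the minus strand at chr10:88361612-88361911, Vim on the plus strand at chr17:81577011-81577310 and Nes on the plus strand at chr2:175736338-175736637. Capitals mark the letters TATAAA, the core of the promoter element that binds the TATA-binding protein, which stood in 1 of the 7 windows, 82 bases before the start of Vim.
Gfap: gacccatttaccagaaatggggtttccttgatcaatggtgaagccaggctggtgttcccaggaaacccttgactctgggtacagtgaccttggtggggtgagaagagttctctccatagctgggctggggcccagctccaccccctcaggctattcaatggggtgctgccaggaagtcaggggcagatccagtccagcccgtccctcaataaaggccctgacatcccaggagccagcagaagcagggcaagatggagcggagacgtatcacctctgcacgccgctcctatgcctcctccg
Vim: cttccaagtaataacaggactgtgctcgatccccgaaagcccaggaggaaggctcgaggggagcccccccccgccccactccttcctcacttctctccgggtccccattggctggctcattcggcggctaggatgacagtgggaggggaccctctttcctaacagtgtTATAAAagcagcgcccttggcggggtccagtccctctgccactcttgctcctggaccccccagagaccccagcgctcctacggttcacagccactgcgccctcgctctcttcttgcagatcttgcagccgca
Nes: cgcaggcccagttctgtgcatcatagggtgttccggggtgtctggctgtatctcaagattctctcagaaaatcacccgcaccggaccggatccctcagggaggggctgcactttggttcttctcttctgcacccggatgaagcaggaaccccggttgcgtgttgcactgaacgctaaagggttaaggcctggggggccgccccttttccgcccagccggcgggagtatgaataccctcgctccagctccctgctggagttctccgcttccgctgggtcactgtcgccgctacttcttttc
The letters TTCNNNGAA, the spaced repeat that STAT factors bind, were searched on both strands and occurred in 0 of the 7 windows. They occurred in 8.87% of the 33465 windows of the table, the stricter form TTCCNGGAA, which it contains, in 1.27%, and the letters in capitals in 14.2%. The absence of these letters says nothing of Stat3 binding outside the windows shown.

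On day 7 after injury 4 of the 7 genes, Socs3, Vim, Nes and Cd44, were called higher, while Gfap overlapped its level in the intact cord. None was called lower in sub-SCI against Intact, where 16.6% of the genes tested were called higher and 17.5% lower. Stat3 was also higher, without overlap but just under the fold limit, and Lcn2 did not pass the test.

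Vim, the filament gene of mesenchymal cells and of reactive and immature astrocytes, stood at 89.4, 336, 373 and 304 CPM in the 4 Intact libraries and at 3412, 2716 and 5072 CPM in sub-SCI. All sub-SCI libraries were above all Intact libraries, and Intact replicate 1 lay far below the other Intact libraries. The log2 fold change was 3.76 ± 0.34 (SE), or 13.5-fold, with an edgeR adjusted p of 7.22e-09. Nes, a filament gene of neural progenitors that reactive astrocytes take up again, stood at 7.15, 11.2, 8.003 and 6.99 CPM in Intact and at 68.5, 58.5 and 76.4 CPM in sub-SCI, again without overlap. It rose 8.12-fold, a log2 fold change of 3.02 ± 0.21 (edgeR adjusted p = 1.56e-10).

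Socs3, which closes the feedback loop on the receptors, stood in Intact at 1.36, 2.06, 1.25 and 2.32 CPM (25 to 61 counts), and reached 18.9, 28.2 and 34.9 CPM in sub-SCI. Its log2 fold change of 3.95 ± 0.34, or 15.5-fold (edgeR adjusted p = 4.09e-09), was the largest of the 7. Cd44, the receptor for hyaluronan and osteopontin, went from 30.3, 41.7, 44.1 and 42.5 CPM to 199.6, 197.2 and 238.3 CPM, with no overlap. This was a rise of 5.34-fold (log2 fold change 2.42 ± 0.19, edgeR adjusted p = 1.23e-09).

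Stat3 differed between the groups by nearly the fold limit, with a narrow spread. The Intact libraries held 124.1, 145.6, 137.3 and 139.2 CPM and the sub-SCI libraries 279.9, 246.3 and 281.9 CPM, so that the groups did not overlap. The log2 fold change was 0.98 ± 0.10 (edgeR adjusted p = 2.96e-08), just inside the limit of 1, and it was above 1 and called with DESeq2, at 1.00 on all libraries and 1.01 on the 2 groups alone.

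Gfap, the filament by which astrocytes are recognised, stood at 3868, 5415, 3795 and 4057 CPM in Intact and at 7919, 4611 and 3680 CPM in sub-SCI. The groups overlapped, with 1 sub-SCI library below every Intact library and 1 above all of them. The log2 fold change was 0.34 ± 0.28 (edgeR adjusted p = 0.308), with a 95% interval (normal, from the SE) from -0.21 to 0.88, and it was -0.05 without sub-SCI replicate 1. Lcn2, which carries iron-binding siderophores and is secreted in inflammation, spread widely, at 1.75, 4.40, 2.08 and 8.13 CPM in Intact and 14.4, 0.979 and 9.22 CPM in sub-SCI. Its log2 fold change was 0.99 ± 0.75 (edgeR adjusted p = 0.257).

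**Figure D1:**
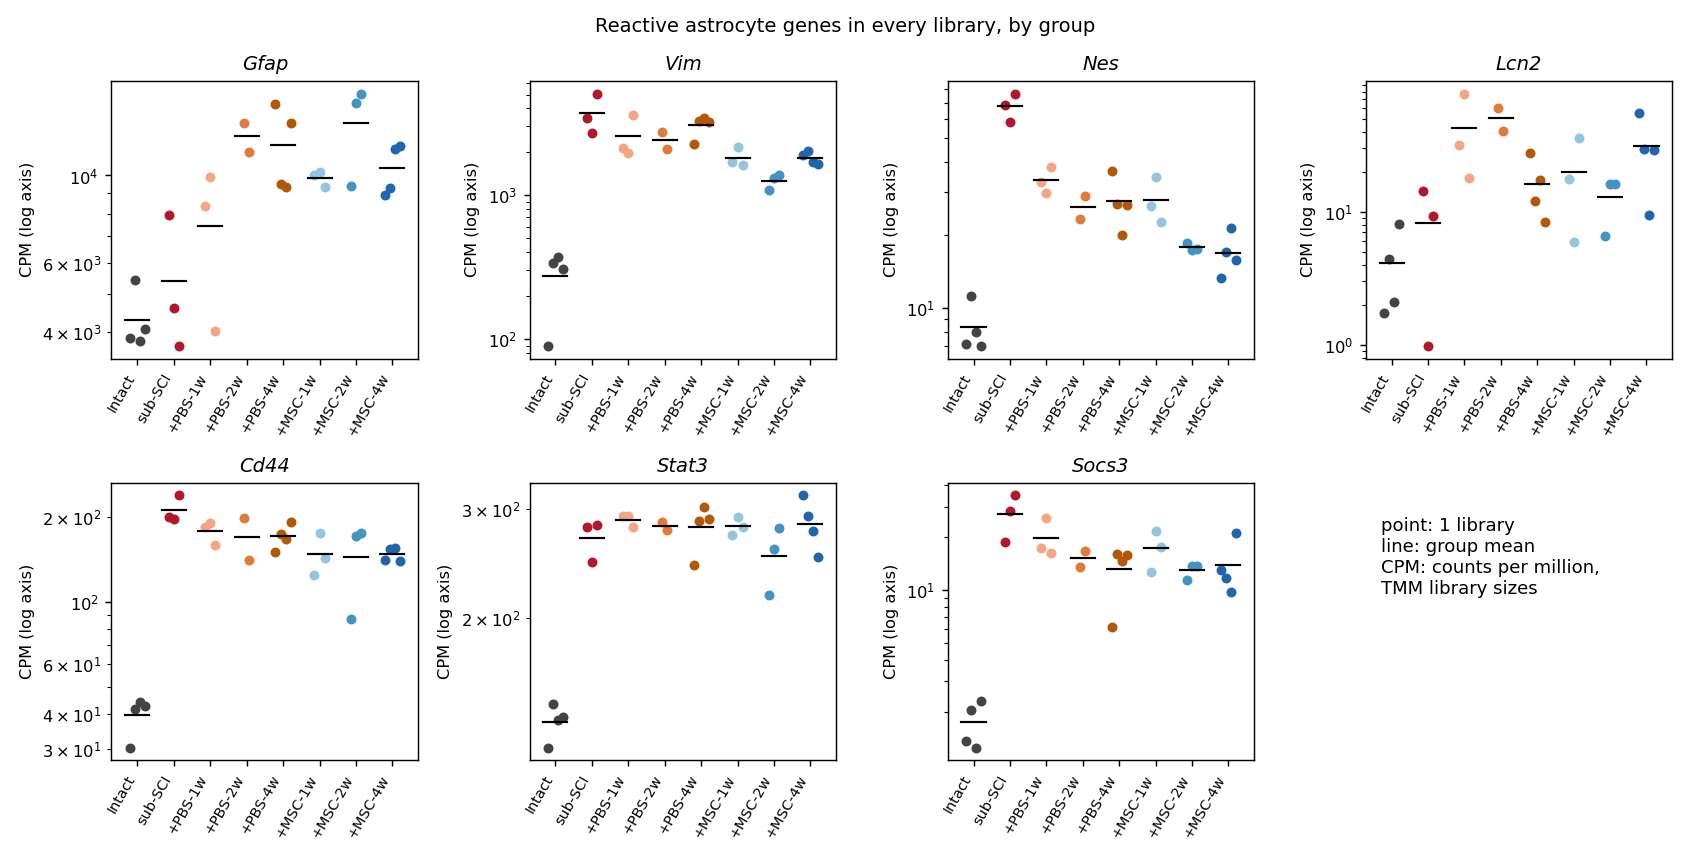
Level of each gene in every library, in CPM on a log axis, by group; a point is 1 library and a line the group mean. The mean of Gfap is highest in +MSC-2w, that of Nes in sub-SCI, and Stat3 lies at 218.3 to 315 CPM in the injured libraries against 124.1 to 145.6 CPM in Intact.

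Beside the Gfap level at day 7, other astrocyte genes fell. Of 12 astrocyte identity markers, among which Gfap was not counted, 8 were called lower in sub-SCI and 0 higher, with a median log2 fold change of -1.33 against -0.02 over all genes. The glutamate transporter gene Slc1a2 fell by 3.03 on the log2 scale, the potassium channel gene Kcnj10 by 2.16 and the water channel gene Aqp4 by 1.46. Summed over the 12 markers, Intact libraries held 8245 to 8602 CPM and sub-SCI libraries 2573 to 4512 CPM.

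Set against that sum, Gfap was higher in every injured library than in any Intact library. Gfap CPM divided by the summed marker CPM was 0.449 to 0.630 in Intact and 1.22 to 1.76 in sub-SCI. In the later groups it was 1.21 to 1.51 in +PBS-1w, 1.39 to 1.6 in +PBS-2w and 1.47 to 1.82 in +PBS-4w, and 1.29 to 1.39 in +MSC-1w, 1.09 to 1.49 in +MSC-2w and 1.15 to 1.39 in +MSC-4w. At 4 weeks the 4 +MSC libraries all lay below the 4 +PBS libraries in this ratio, whereas at 1 and 2 weeks the groups overlapped. The ratio was formed after the values had been seen, and no test of it was made.

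In the +PBS groups 6 genes were called higher than Intact at 1 week, 7 at 2 weeks and 6 at 4 weeks, with none called lower. The shares of all genes called higher were 13.5% in +PBS-1w, 8.84% in +PBS-2w and 13.3% in +PBS-4w against Intact, and those called lower 12.5%, 5.66% and 10.7%. Gfap was the exception at 1 week and Lcn2 at 4 weeks. Stat3, not called in sub-SCI, crossed the fold limit with log2 fold changes against Intact of 0.98 in sub-SCI and 1.08 in +PBS-1w. Its difference between +PBS-1w and sub-SCI was 0.096 (edgeR adjusted p = 0.672). Without the replicate 1 libraries 5 genes were called in +PBS-2w, the calls lost being Gfap (1.40, edgeR adjusted p = 0.0170) and Lcn2 (3.07, adjusted p = 0.0489).

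In CPM, Gfap was called above Intact in the +PBS groups only from 2 weeks. Relative to the astrocyte marker sum, Gfap was already higher in sub-SCI. Gfap held 8341, 9904 and 4018 CPM in +PBS-1w, 13630 and 11500 CPM in +PBS-2w, and 15220, 9539, 9373 and 13620 CPM in +PBS-4w. The low library of +PBS-1w lay within the Intact range, and all libraries at 2 and 4 weeks lay above it. Against Intact the log2 fold change was 0.79 ± 0.28 at 1 week (edgeR adjusted p = 0.0207, not called), 1.55 ± 0.31 at 2 weeks (adjusted p = 0.000510) and 1.48 ± 0.27 at 4 weeks (adjusted p = 9.08e-05). On average Gfap took 0.408% of all counts in Intact and 1.27% in +PBS-2w. Without +PBS-1w replicate 3 the 1 week value was 1.09 and was called, and without +PBS-2w replicate 1 the 2 week value was 1.45 with an adjusted p of 0.0145, not called.

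Measured from day 7 instead, Gfap rose and Nes fell. In the comparisons of +PBS with sub-SCI no gene of the 7 was called at 1 week, where 0.156% of all genes were, 1 at 2 weeks, where 5.44% were, and 2 at 4 weeks, where 7.37% were. Gfap was 2.21-fold higher in +PBS-4w than in sub-SCI (log2 fold change 1.14 ± 0.29, edgeR adjusted p = 0.00621). That call was lost without any 1 of +PBS-4w replicates 1 and 4 and sub-SCI replicates 2 and 3, with log2 fold changes of 0.93 to 1.07.

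Nes went down from its peak to 33.2, 30.0 and 38.1 CPM in +PBS-1w, 23.3 and 29.0 CPM in +PBS-2w, and 36.7, 26.8, 20.0 and 26.7 CPM in +PBS-4w, every library being below every sub-SCI library. Relative to sub-SCI the log2 fold change was -1.01 ± 0.21 at 1 week (edgeR adjusted p = 0.0162, not called there but called in DESeq2 on all libraries), -1.37 ± 0.25 at 2 weeks (adjusted p = 0.000946) and -1.30 ± 0.20 at 4 weeks (adjusted p = 7.52e-05). The 2 week call was lost without either +PBS-2w library, and without the replicate 1 libraries it was -1.24 (adjusted p = 0.0138), not called. Nes nonetheless stayed above Intact, with log2 fold changes of 2.02, 1.65 and 1.72 at the 3 times, all called.

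For Vim no fall from day 7 was called. Its means in +PBS-1w, +PBS-2w and +PBS-4w were 2564 ± 898 (SD, n = 3), 2409 ± 456 (n = 2) and 3056 ± 527 CPM (n = 4), against 3733 ± 1210 CPM in sub-SCI (n = 3). Ranges overlapped with sub-SCI at all 3 times, and the log2 fold changes against sub-SCI of -0.54, -0.63 and -0.29 had edgeR adjusted p-values of 0.421, 0.275 and 0.544. Against Intact Vim was 9.30-fold, 8.74-fold and 11.1-fold higher. Per kb of transcript, Vim stood at 0.0456 to 0.194 of the Gfap level in Intact, 0.849 to 2.72 in sub-SCI and 0.294 to 0.721 in +PBS-4w.

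Cd44 and Stat3 stayed within a narrow range. Cd44 means were 177.5 ± 16.1, 169.6 ± 40.9 and 170.7 ± 17.4 CPM in +PBS-1w, +PBS-2w and +PBS-4w (SD, n = 3, 2 and 4), with log2 fold changes against Intact of 2.16, 2.096 and 2.11. Stat3 means were 287.8 ± 6.9, 281.5 ± 5.7 and 279.9 ± 25.1 CPM, and the log2 fold changes of 1.08, 1.04 and 1.04 against Intact were all called. The last was 1.00 and not called without +PBS-4w replicate 3. Neither gene differed from sub-SCI by a called change at any of the 3 times, and the largest absolute log2 difference was 0.32. For Cd44, all libraries of +PBS-1w (up to 189.5 CPM) and +PBS-4w (up to 192 CPM) lay below the lowest of sub-SCI (197.2 CPM). The share of all genes with such a separation was not counted.

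Socs3 had means of 27.4 CPM in sub-SCI and 19.9, 15.2 and 13.2 CPM in the +PBS groups, differences that were not called. The +PBS-4w libraries held 6.11, 16.2, 14.8 and 15.8 CPM, all below the lowest sub-SCI library at 18.9 CPM, and replicate 1 lay far below the others. Its log2 fold change against sub-SCI at 4 weeks was -1.05 ± 0.31 (edgeR adjusted p = 0.0159) and passed the call in DESeq2 on all libraries (-1.08, DESeq2 adjusted p = 0.00481). Against Intact Socs3 was still 7.49-fold higher at 4 weeks (adjusted p = 3.15e-07).

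Lcn2 was called higher in the first weeks after saline, with the widest standard errors of the 7 genes. It was measured at 31.7, 77.3 and 17.9 CPM in +PBS-1w, at 60.0 and 40.7 CPM in +PBS-2w and at 27.5, 11.96, 17.3 and 8.35 CPM in +PBS-4w. The first 2 groups lay above all Intact and sub-SCI libraries, and +PBS-4w lay above Intact by a small margin. The log2 fold change against Intact was 3.35 ± 0.76 (edgeR adjusted p = 0.000892), 3.60 ± 0.81 (adjusted p = 0.00166) and 1.98 ± 0.71 (adjusted p = 0.0241, not called). Without +PBS-2w replicate 1 the 2 week call was lost (3.32, adjusted p = 0.0230). The summed level of 7 neutrophil markers was 437.5 to 448.3 CPM in +PBS-2w, 83.8 to 138.7 in +PBS-1w, where the lactoferrin gene Ltf was at 0 in every library, 163.8 to 189.5 in sub-SCI and 8.84 to 151.2 in Intact, and its part in the Lcn2 levels was not tested.

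**Figure D2:**
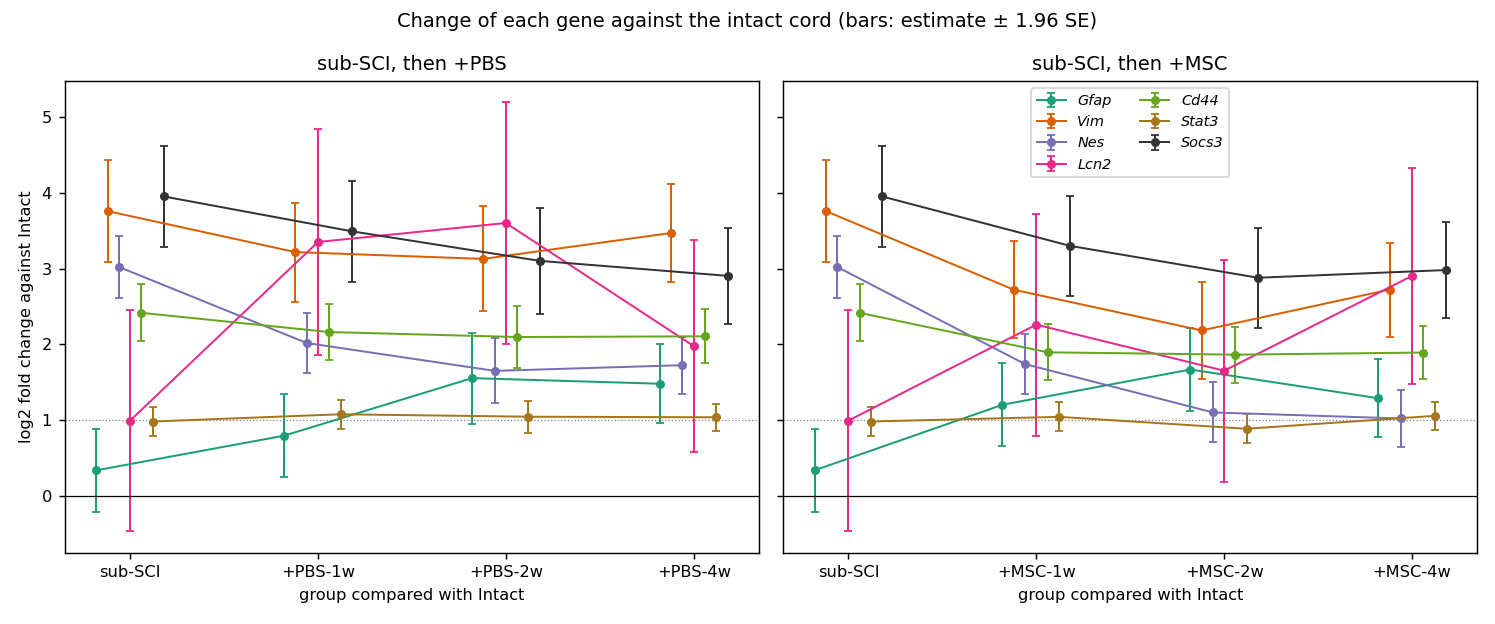
Log2 fold change of each gene against Intact, in sub-SCI and then in the +PBS groups (left) or the +MSC groups (right); bars are 95% intervals from the SE of the edgeR fit, the dotted line is the fold limit of the call, and all points share the Intact libraries. Gfap starts at 0.34 and reaches 1.55 in +PBS-2w, Nes falls from 3.02, and the bars of Lcn2 are the widest.

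Transplantation was compared with saline at the same week, and none of the 7 genes was called at any week. Of all genes 0.0111% were called in either direction at 1 week, 0% at 2 weeks and 0.495% at 4 weeks, so this fit called few genes anywhere. With DESeq2 at the same limits the study reported genes reversed by hUC-MSCs at every week. The estimates of 6 of 7 genes were below 0 at 1 and at 2 weeks and of 4 of 7 at 4 weeks, with medians of -0.27, -0.23 and -0.19 beside 0.00, 0.00 and -0.04 over all genes. An unadjusted edgeR p under 0.05 was reached by 0, 3 and 2 of the 7 genes and by 3219, 2219 and 4048 of the 17990 tested. With DESeq2 on the 2 groups alone, 1 gene, Lcn2, was called lower at 2 weeks, a comparison with 2 libraries in one arm, and 0 at 1 and 4 weeks. DESeq2 on all libraries called 0 at all 3 weeks. The share of all genes called by DESeq2 was not counted, so these DESeq2 counts have no background beside them.

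Vim had estimates below 0 at all 3 weeks. It held 1689, 2150 and 1614 CPM in +MSC-1w against 2139, 1958 and 3596 CPM in +PBS-1w, and 1078, 1305 and 1372 CPM in +MSC-2w against 2732 and 2087 CPM in +PBS-2w. At 4 weeks the +MSC libraries held 1913, 2012, 1700 and 1649 CPM and the +PBS libraries 2274, 3279, 3427 and 3244 CPM. At 2 and at 4 weeks every +MSC library was below every +PBS library. Such a separation was seen for 3 of the 7 genes at 2 weeks (Vim, Nes and Lcn2), where 18.4% of all genes showed it, for 1 at 4 weeks (Vim), where 4.47% did, and for 0 at 1 week, where 11.6% did. The log2 fold changes were -0.50 ± 0.34, -0.94 ± 0.38 and -0.75 ± 0.30, with edgeR adjusted p-values of 0.479, 0.339 and 0.141.

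Nes had estimates below 0 at all 3 weeks as well. At 1 week it held 26.3, 34.6 and 22.7 CPM in +MSC and 33.2, 30.0 and 38.1 CPM in +PBS, at 2 weeks 18.6, 17.4 and 17.6 CPM and 23.3 and 29.0 CPM. At 4 weeks it held 13.3, 17.1, 21.4 and 15.8 CPM in +MSC and 36.7, 26.8, 20.0 and 26.7 CPM in +PBS, a small overlap. The log2 fold changes were -0.28 ± 0.21, -0.55 ± 0.24 and -0.70 ± 0.19. The last had an edgeR adjusted p of 0.0351, under 0.05 as for 0.928% of all genes in that direction but above the threshold of the call, and without the replicate 1 libraries the value was -0.43 (adjusted p = 0.19).

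Averaged over the 3 weekly effects, Nes was lower in +MSC by a log2 fold change of -0.51 ± 0.12 (edgeR adjusted p = 0.00604) and Vim by -0.73 ± 0.20 (adjusted p = 0.0119). These are 0.702-fold and 0.603-fold of the saline level, respectively, and short of the fold limit, so that 0 of 7 genes were called where 2.57% of all genes were. At an adjusted p under 0.05 with no fold limit these 2 genes passed, where 10.9% of all genes passed as lower. With single libraries left out the Vim value ran from -0.80 to -0.62 and the Nes value from -0.58 to -0.46. Without +PBS-2w replicate 1 Vim no longer passed an adjusted p of 0.05 (-0.68, edgeR adjusted p = 0.0568).

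For the other genes no difference by treatment passed the test, and their averaged effects are given with 95% intervals (normal, from the SE). Lcn2 differed by -0.71 (interval -1.57 to 0.16, edgeR adjusted p = 0.265). Stat3 differed by -0.06 (-0.18 to 0.06), Socs3 by -0.11 (-0.49 to 0.26), Cd44 by -0.24 (-0.47 to -0.01, edgeR adjusted p = 0.142) and Gfap by 0.11 (-0.23 to 0.45). The interval of Cd44 leaves out 0 though its unadjusted edgeR p was 0.0521, so these intervals are slightly too narrow to serve as bounds. Gfap was estimated higher in +MSC at 1 week (0.41 ± 0.30) and lower at 4 weeks (-0.19 ± 0.26), with adjusted p-values of 0.511 and 0.704. At 2 weeks the 6 neutrophil markers tested had estimates below 0, with a median of -1.98 beside 0.00 over all genes and none called. The summed level of the 7 neutrophil markers overlapped between the arms at 1 week, at 69.4 to 183.6 CPM in +MSC and 83.8 to 138.7 CPM in +PBS. It also overlapped at 4 weeks, at 55.2 to 293.6 CPM in +MSC and 25.4 to 330 CPM in +PBS. The part of neutrophils in the Lcn2 differences was not tested. Lcn2 had estimates of -1.09 ± 0.77, -1.95 ± 0.85 and 0.93 ± 0.67 at the 3 weeks. The difference of the Lcn2 effect between 4 and 2 weeks was 2.88 ± 1.09 (edgeR adjusted p = 1), and no gene of the table passed an adjusted p of 0.05 for a difference between weeks.

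**Figure D3:**
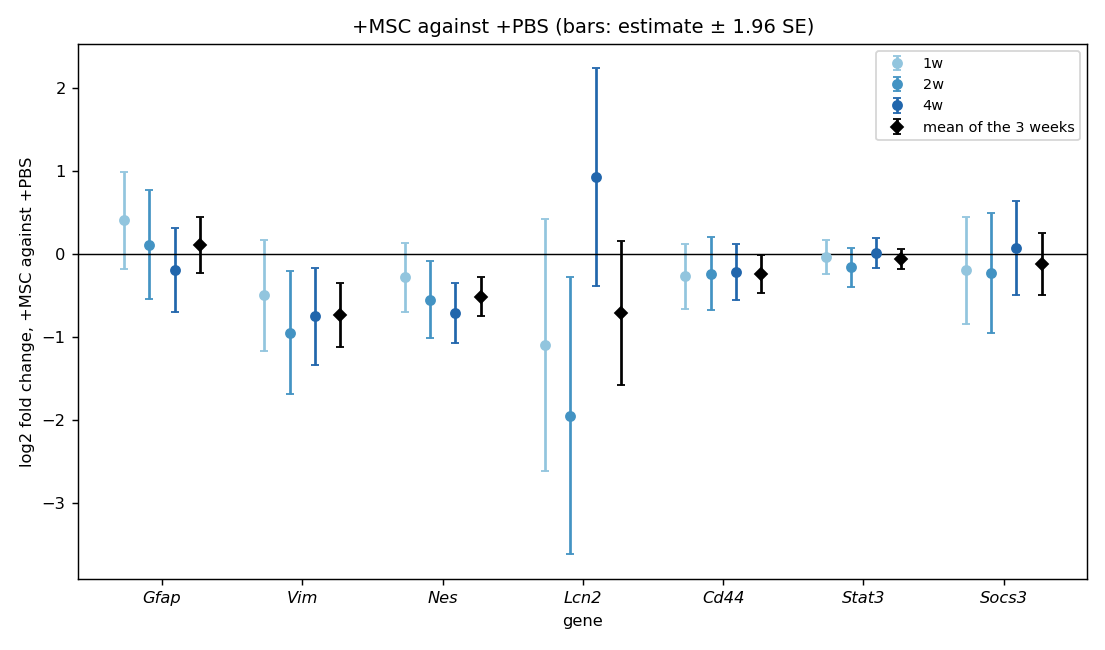
Log2 fold change of +MSC against +PBS for each gene at 1, 2 and 4 weeks and for the mean of the 3 weekly effects (diamonds); bars are 95% intervals from the SE of the edgeR fit. The bars of Vim and Nes lie below 0 at 2 and 4 weeks and for the mean, those of Stat3 lie around 0, and those of Lcn2 span the widest range.

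The genes were still raised after transplantation. In +MSC-1w 6 of them were called higher than Intact, in +MSC-2w 5 and in +MSC-4w 7, where 7.87%, 5.6% and 7.25% of all genes were. Lcn2 at 1 and 2 weeks and Stat3 at 2 weeks (log2 fold change 0.88, edgeR adjusted p = 9.07e-07) were not called. Nes stood at 17.9 ± 0.7 CPM (SD, n = 3) in +MSC-2w and 16.9 ± 3.4 CPM (n = 4) in +MSC-4w, or 2.14-fold and 2.03-fold of Intact. The 4 week call of Nes was lost without +MSC-4w replicate 3 or without Intact replicate 1, 3 or 4, with log2 fold changes of 0.89 to 1.00. The Lcn2 call at 4 weeks (log2 fold change 2.90 ± 0.73, edgeR adjusted p = 0.00475) was lost without +MSC-4w replicate 1 or without Intact replicate 1, 2 or 3, at 2.46 to 2.95. Without the replicate 1 libraries 5 genes were called in each +MSC group. The calls lost were Gfap at 1 week (1.17 without them, edgeR adjusted p = 0.0104) and, at 4 weeks, Lcn2 (2.23, adjusted p = 0.0520) and Stat3 (0.97, under the fold limit).

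Ordered by mean level, Gfap ran from +MSC-2w (13600 CPM) through +PBS-2w, +PBS-4w, +MSC-4w, +MSC-1w, +PBS-1w and sub-SCI to Intact, and every neighbouring pair in that order overlapped. For Vim the order was sub-SCI, +PBS-4w, +PBS-1w, +PBS-2w, +MSC-4w, +MSC-1w, +MSC-2w and Intact, and +PBS-2w did not overlap +MSC-4w, +MSC-1w did not overlap +MSC-2w, nor +MSC-2w Intact. For Nes sub-SCI stood apart at the top and Intact at the bottom, and +PBS-2w did not overlap +MSC-2w, the next below it. Cd44 and Socs3 were highest in sub-SCI and lowest in Intact, Stat3 was lowest in Intact with the 7 injured groups overlapping their neighbours, and Lcn2 overlapped between all neighbours.

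Inside the groups, the libraries highest and lowest in Gfap and in Vim were set beside those highest and lowest in marker sums. In 5 of the 7 groups of 3 or 4 libraries the library with the most Gfap was also the one with the highest astrocyte marker sum, and in 5 the library with the least Gfap had the lowest. The library with the most Vim had the highest summed level of 8 fibroblast and pericyte markers in 5 of the 7 groups, whereas the library with the least Vim had the lowest in 3 and the highest in 1. The full order of the libraries matched in 4 groups for Gfap and in 1 for Vim. With microglia and macrophage markers the library with the most Vim matched in 3 groups and that with the least in 3. No test of these matches was made. In sub-SCI, replicate 3 had the least Gfap (3680 CPM) and the most Vim (5072 CPM), beside 2573 CPM of astrocyte markers and 19530 CPM of fibroblast and pericyte markers. In +PBS-1w, replicate 3 likewise had the least Gfap and the most Vim, with 3324 and 9436 CPM of the respective markers.

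The fibroblast and pericyte markers also differed between the groups. All 8 were called higher in sub-SCI and in +PBS-1w against Intact, 0 in +PBS-2w and 6 in +PBS-4w, and all 8 estimates were below 0 for +MSC against +PBS at each week, with medians of -1.13, -1.57 and -1.07 and none called. Their sum was 171.5 CPM in Intact replicate 1, the library with the least Vim, against 643.6 to 1255 CPM in the other Intact libraries. It was 1242 CPM in +PBS-4w replicate 1, the library of that group with the least Vim and Socs3 and the most Gfap, against 3999 to 5025 CPM in the rest. Microglia and macrophage markers were called higher in 9, 11, 9 and 8 of 12 cases in sub-SCI, +PBS-1w, +PBS-2w and +PBS-4w. Their summed level was 369.9 to 740.6 CPM in Intact and 5777 to 6379 CPM in sub-SCI. At 1 week it was 3356 to 3556 CPM in +MSC and 5366 to 6633 CPM in +PBS. At 2 weeks it was 1949 to 3329 CPM in +MSC and 3632 to 5546 CPM in +PBS. At 4 weeks the groups overlapped, at 3025 to 3742 CPM in +MSC and 3430 to 4826 CPM in +PBS. Markers of endothelial cells, in which nestin is also known, were called higher in 2, 1, 0 and 1 of 6 cases over the same comparisons with Intact. Cldn5 was at 0 in every group, Intact included, and whether this reflects the tissue or the counting was not tested. Ependymal markers were called higher in 0, 1, 1 and 3 of 5 cases over those comparisons. Of all genes 16.6%, 13.5%, 8.84% and 13.3% were called higher in them. The part of these cells in the levels of Vim, Nes, Cd44 and Socs3 was not tested.

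**Figure D4:**
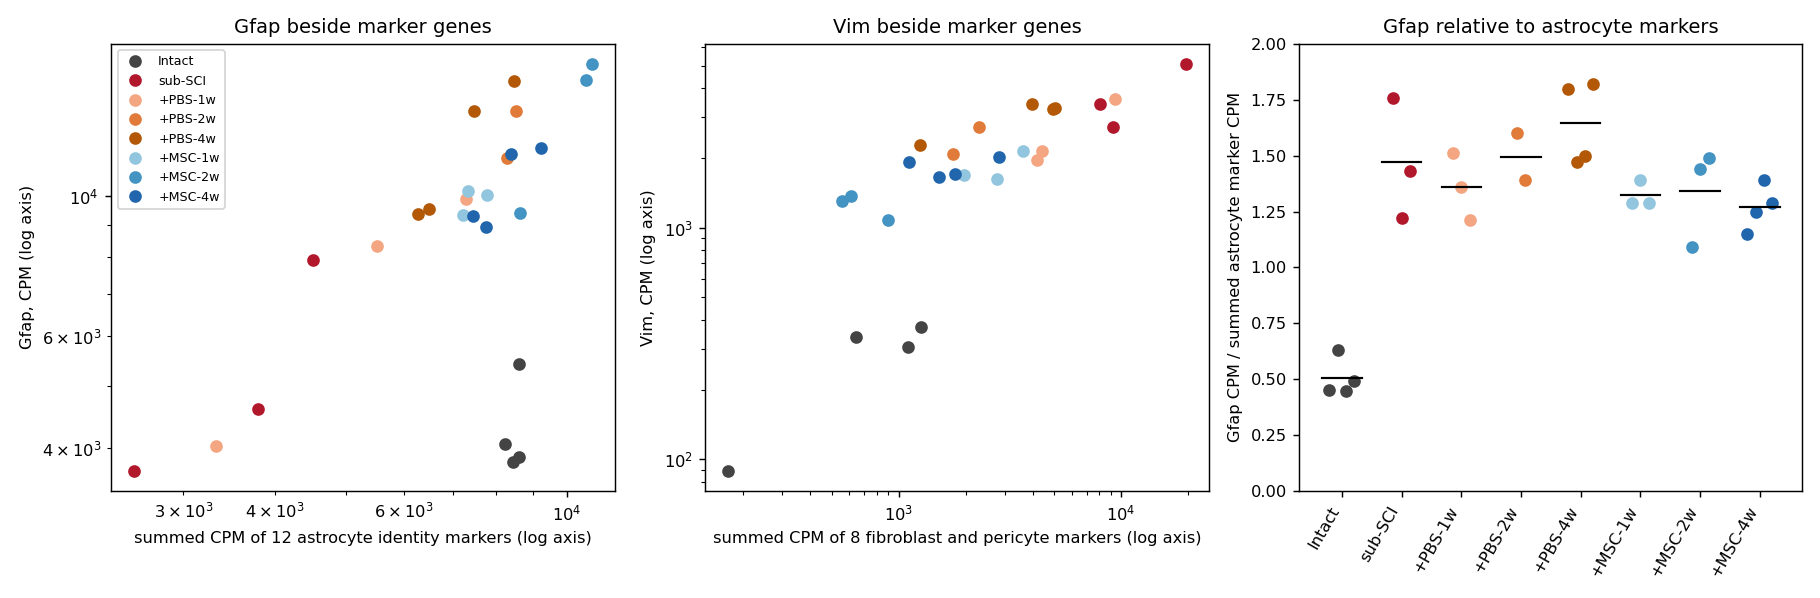
Gfap against the summed level of 12 astrocyte identity markers (left) and Vim against that of 8 fibroblast and pericyte markers (middle), 1 point for each library, CPM on log axes, and Gfap divided by the astrocyte marker sum by group (right, lines are means). On the left some injured libraries hold as little Gfap as Intact libraries, at a lower marker sum. The ratio is 0.449 to 0.630 in Intact and 1.09 to 1.82 in the injured groups.

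Genes most like each member were sought over all genes tested, by the root mean square difference of the 7 log2 fold changes against Intact, which share the Intact libraries. Nearest to Gfap were Vil1 (0.12), Togaram2 (0.18) and Clu (0.19), the last being clusterin, an extracellular chaperone of astrocytes. Nearest to Vim were Cd14 (0.21), a receptor of macrophages, Fcna (0.23) and Cytip (0.23), and to Socs3 the unnamed gene AABR07039446.2 (0.21), Cd53 (0.22), a tetraspanin of leukocytes, and Rbm47 (0.22). Olr1585, Gnpda1 and Trpv2 were nearest to Nes (0.15 to 0.18), Rab13, Traf3ip3 and Cdkn2b to Cd44 (0.09 to 0.11), AABR07072207.1, Fam219b and Dennd1c to Stat3 (0.11 to 0.12), and Tff3, Plb1 and Batf2 to Lcn2 at larger distances (0.46 to 0.63).

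Upstream of Stat3, ligands of the interleukin 6 family rose while their shared receptor subunit did not change by the test. Of 7 ligands 5 were called higher in sub-SCI, 3 in +PBS-1w, 4 in +PBS-2w and 4 in +PBS-4w, with no call lower and median log2 fold changes of 2.98, 2.04, 1.25 and 1.23. Il6 was called higher in sub-SCI (edgeR adjusted p = 0.00232), at 0.538 ± 0.173 CPM (SD, n = 3) against 0.0576 ± 0.0237 CPM in Intact (n = 4), a level of so few counts that no fold is given. Osm, which macrophages and neutrophils secrete, stood at 0.647 ± 0.315 CPM in Intact and 6.08 ± 0.53 CPM in sub-SCI and was called at all 4 times. Lif peaked in sub-SCI, at 6.90 ± 3.04 CPM against 0.491 ± 0.108 in Intact, and fell by 2.56 ± 0.37 on the log2 scale from sub-SCI to +PBS-4w (edgeR adjusted p = 4.47e-05). Among the 4 comparisons Cntf was called in +PBS-4w alone, at 1.00 ± 0.20 (adjusted p = 0.000329), and Clcf1 at all 4 times, at 2.98, 2.61, 2.69 and 2.68, and Ctf1 at 2 and 4 weeks.

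The receptors split. Osmr, the partner of gp130 for oncostatin M, rose from 4.26 ± 0.79 CPM in Intact to 40.7 ± 22.2 CPM in sub-SCI (log2 fold change 3.25 ± 0.42, edgeR adjusted p = 1.03e-06), and Il6r by 2.03 ± 0.24 (adjusted p = 3.18e-07). Lifr fell by 2.18 ± 0.35 and Cntfr by 1.27 ± 0.18 in sub-SCI, and Il6st, the gene of gp130 itself, stood at 143.2 ± 9.8 and 127.4 ± 25.3 CPM, a log2 fold change of -0.17 ± 0.29 (adjusted p = 0.631). Among the 3 JAK kinases Jak2 was called, at 1.26 ± 0.14 in sub-SCI (adjusted p = 1.30e-07) and 1.02 ± 0.14 in +PBS-1w, and at 2 and 4 weeks it was estimated at 0.90 and 0.93. Of the 6 inhibitors other than Socs3, the phosphatase gene Ptpn6, a gene of blood cells, rose by 3.24 ± 0.23 in sub-SCI, Socs1 by 1.36 ± 0.40, and Ptpn11 fell by 1.14 ± 0.21. None of these 22 ligand, receptor, kinase and inhibitor genes was called for +MSC against +PBS at any week or in the mean.

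**Figure D5:**
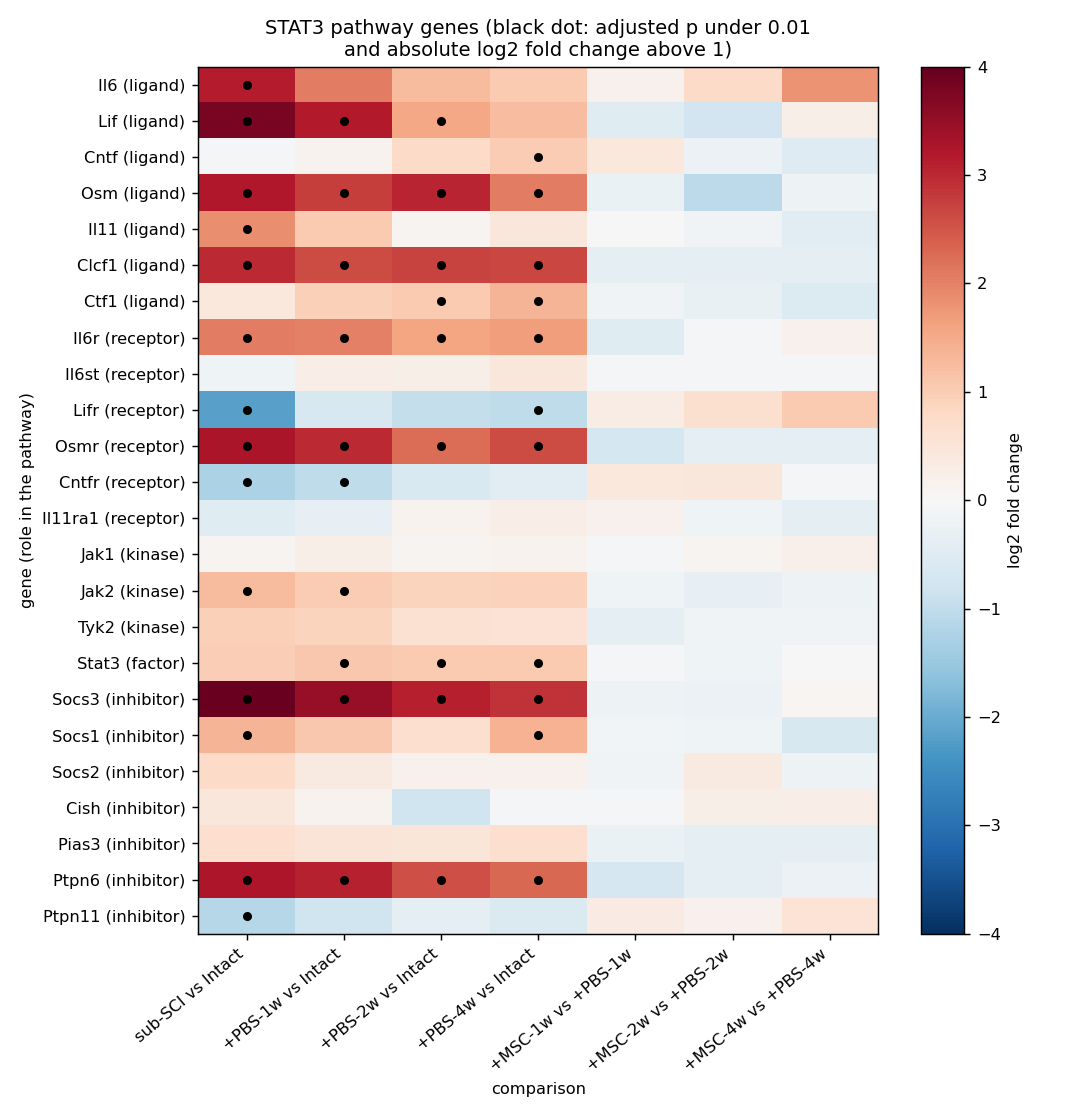
Log2 fold change (colour) of Stat3, Socs3 and the other genes of the pathway by role, in the 4 comparisons with Intact and the 3 of +MSC with +PBS; a black dot marks a call. Osm, Clcf1, Osmr, Il6r, Socs3 and Ptpn6 are red and dotted in all 4 comparisons with Intact, the other ligands are dotted in part of them, Lifr and Cntfr are blue, and no dot stands in the +MSC columns.

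Other genes used to mark reactive astrocytes were called higher than Intact in most cases, including at times when Gfap and Lcn2 were not. The 8 further pan-reactive genes were all called higher at all 4 times against Intact, with medians of 2.60, 2.69, 2.44 and 2.79. Timp1, an inhibitor of matrix metalloproteinases, rose from 12.2 ± 5.7 CPM in Intact to 259.8 ± 80.8 CPM in sub-SCI (log2 fold change 4.41 ± 0.31, edgeR adjusted p = 2.73e-10), and was lower in +PBS-4w than in sub-SCI by -1.30 ± 0.28 (adjusted p = 0.00213). The chemokine gene Cxcl10 was at 3.84, 3.99, 3.86 and 3.83 and ceruloplasmin (Cp) at 2.34, 3.29, 3.31 and 3.27 over the 4 comparisons. Of 8 genes of the A1 type, named for inflammation, 5, 6, 5 and 6 were called higher. Of 12 genes of the A2 type, named for ischaemia, 11, 10, 8 and 9 were. Of all genes 16.6%, 13.5%, 8.84% and 13.3% were called higher in these comparisons. Genes of both lists were called, and in bulk tissue these counts do not say which type of astrocyte was present. Several of these genes, such as Gbp2, Psmb8 and Cd14, are also expressed by immune cells. Clcf1 and Osmr count both here and in the Stat3 pathway. Emp1 was the 1 gene of the A2 list called for the mean +MSC effect, at -1.35 ± 0.28 (adjusted p = 0.00256).

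Other filament genes and the partners of Cd44 and Lcn2 changed in part. Of 7 further filament and linker genes Lmna and Krt8 were called higher in sub-SCI, by 1.73 ± 0.19 and 2.89 ± 0.47, and Synm, whose product co-assembles with vimentin, was higher in +PBS-4w than in sub-SCI by 1.00 ± 0.21 (edgeR adjusted p = 0.00162), in the direction of Gfap. Krt8 was also called for the mean +MSC effect, at -1.19 ± 0.28 (adjusted p = 0.00510). Spp1, the gene of the Cd44 ligand osteopontin, stood at 218.1 ± 13.8 CPM in Intact and 3875 ± 1354 CPM in sub-SCI (log2 fold change 4.15 ± 0.51, adjusted p = 5.45e-07) and fell by 2.00 ± 0.48 from there to +PBS-4w (adjusted p = 0.00414). The receptors for lipocalin 2 were called lower in sub-SCI, Lrp2 at -2.14 ± 0.23 and Slc22a17 at -1.38 ± 0.26. Both were called lower in +PBS-1w and in +PBS-4w as well, in the latter at -1.02 ± 0.20 and -1.08 ± 0.23, and neither was in +PBS-2w, at -0.76 ± 0.25 and -0.95 ± 0.30 (edgeR adjusted p = 0.0224 and 0.0157).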

How the data were processed

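RNA of 26 rat spinal cord segments was sequenced as poly(A) libraries. The authors trimmed reads with Trim Galore 0.5.0, removed reads that aligned to the human genome GRCh38, aligned the rest to Rnor6 with HISAT2 2.1.0, kept proper pairs with SAMtools 1.9 and deposited raw counts per gene from featureCounts 1.6.4; the annotation release and strand setting are not given in the sources used here. The deposited counts were tested with edgeR 4.0.16 in R 4.3.3 (filterByExpr, TMM, quasi-likelihood, 1 model of 8 groups, Benjamini-Hochberg over 17990 genes); SE is the absolute log2 fold change divided by the square root of F. Log2 CPM used a prior count of 2 for the correlations of deviations and no prior count for Dixon's gap over range. DESeq2 1.42.0 was an alternative, with other filters, factors and left-out libraries. Scripts were tested on simulated data. The methods text gives +MSC-2w 2 repeats, the labels +PBS-2w, and the labels were followed. The members and gene lists were chosen with earlier results of these data known. Genes were named by rule: the members, the called genes of each pathway list with the smallest adjusted p (up to 4), 8 pathway genes always, and the 3 genes most like each member. Examples of astrocyte markers, and Cntf, were chosen after their values were seen. Whether replicate numbers pair samples is not given in the sources used here. Correlations of same-numbered deviations were 0.191, 0.202 and 0.411 for +PBS-1w against sub-SCI. For +MSC-4w against +PBS-4w they were 0.171, 0.233, 0.0158 and 0.186. With a replicate block 0 members were called in either comparison, as without.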

Additional observations from a re-analysis of the deposited data

Results flagged for a closer look

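In 4 of the 21 pairs of a gene and a group of 4 libraries, 1 library lay farther from the others than Dixon's critical value for 4 samples allows for the gap to its nearest neighbour over the range of the group, on the log2 CPM scale. Chance alone puts about 1 in 20 such groups past the limit. Vim (gap over range 0.858, at 89.4 CPM) and Cd44 (0.850, at 30.3 CPM) were low in Intact replicate 1. Vim (0.866, at 2274 CPM) and Socs3 (0.905, at 6.11 CPM) were low in +PBS-4w replicate 1. Both are replicate 1 libraries with a low sum of fibroblast and pericyte markers (171.5 and 1242 CPM), and the part of those cells in these levels was not tested.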

How the results depend on the processing

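Of the single gene results of the 7 members, 838 kept their direction and their side of the threshold under another filter, factor, test, block or library choice, 14 passed it newly, 10 lost it and 6 turned in direction. With single libraries left out these numbers were 709, 5, 17 and 11. Every turned value was small and not called, and the cause was not tested. Without the replicate 1 libraries Gfap in sub-SCI against Intact was -0.046 and, for +MSC against +PBS, Cd44 was 0.29 at 2 weeks and at 4 weeks Gfap was 0.021, Socs3 -0.13 and Stat3 -0.088. With at least 10 counts in every library Stat3 was -0.0034 at 4 weeks. With single libraries left out, Gfap in sub-SCI against Intact ran from -0.047 to 0.55, Stat3 in +PBS-4w against sub-SCI from -0.0046 to 0.11 and, for +MSC against +PBS, Socs3 at 1 week from -0.39 to 0.040, Cd44 and Gfap at 2 weeks from -0.46 to 0.050 and from -0.028 to 0.32, and Socs3 and Stat3 at 4 weeks from -0.20 to 0.21 and from -0.069 to 0.073. Against sub-SCI the number of members called (0, 1 and 2 in +PBS-1w, +PBS-2w and +PBS-4w) was 1 in +PBS-1w and 3 in +PBS-2w at an adjusted p under 0.05 with no fold limit, 1 and 2 there with DESeq2 on all libraries, 2 in +PBS-2w with DESeq2 on the 2 groups, 0 in +PBS-2w and 0 in +PBS-4w with edgeR on the 2 groups, 0 in +PBS-2w without the replicate 1 libraries and 1 in +PBS-4w with no filter. In +PBS-4w it was 3 with DESeq2 on all libraries, at an adjusted p under 0.05 and with a term for the replicate 1 libraries. In sub-SCI against Intact 5 members rather than 4 were called, Stat3 being added, in 7 of the 10 alternatives that left out no single library. In +PBS-2w against Intact 5 rather than 7 were called without the replicate 1 libraries. Against sub-SCI, with single libraries left out, the number of members called ran from 0 to 2 in +PBS-2w and from 1 to 3 in +PBS-4w. For +MSC against +PBS it was 1 at 2 weeks with DESeq2 on the 2 groups, and 1 at 4 weeks and 2 for the mean effect at an adjusted p under 0.05. With the replicate block the counts of calls were the same as without it, except 3 in +PBS-4w against sub-SCI, where Socs3 passed at -1.24 (edgeR adjusted p = 0.000780). Where a group has 2 libraries, leaving 1 out assumes that the lone library varies like the other groups. Counts of 25 to 61 limit the precision of Socs3 in Intact.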
